A study of Mus musculus with 6 samples.

Results

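The macrophage and antigen presentation genes are 34 genes that tissue macrophages and related leukocytes use to take up, digest and display material. They were measured in mouse ovarian granulosa cell samples, the somatic cells that surround the oocyte in a follicle. Each gene was matched to the array by its symbol, using only probe sets annotated with a single gene, and was represented by its probe set of highest mean over all arrays. All 34 were found among the 18193 genes represented in this way. They were split by role into MHC class II presentation, complement C1q, lysosome and phagosome, Fc receptors, growth factor and chemokine receptors, scavenger and pattern receptors, pan-leukocyte surface proteins, and leukocyte actin proteins.

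There were 6 arrays in 3 groups of 2. The dKO 2-month and dKO day 25 groups carried the genotype Foxo1 f/-;Foxo3 f/-; Amhr2-cre, in which the floxed alleles of both transcription factor genes are deleted by a Cre recombinase under the control of Amhr2, a gene active in granulosa cells and in other somatic cells of the female reproductive tract. The other allele of each gene is written as a minus sign in that genotype. Whether it was lost in all cells, leukocytes included, is not known here. The wild-type group was taken at day 25. All mice were of mixed FVB and C57BL/6 background. Wild-type samples at 2 months were not analysed here, so the dKO 2-month group differed from the wild-type group in both genotype and age. The labels do not say whether replicates came from separate animals, so the p-values reflect the spread among these arrays alone, and that spread may be technical.

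Macrophages are among the most common leukocytes of the ovary. They lie in the stroma, the theca and the corpus luteum, and they clear dying follicle cells. MHC class II molecules carry peptides from ingested proteins to the cell surface for CD4 T cells, with Cd74, the invariant chain, guarding the groove until it is trimmed away in the endosome. C1q is the recognition unit of the classical complement pathway, is made largely by macrophages, and tags immune complexes and dying cells for uptake. Fc receptors bind antibody-coated material, and Csf1r, the receptor for colony stimulating factor, keeps macrophages alive.

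The promoters of a pair of MHC class II genes and a pair of C1q genes are shown, because the day 25 groups overlapped for the MHC class II genes and not for the C1q genes. MHC class II promoters are known for an X box and a Y box, and PU.1 is a transcription factor of myeloid cells whose sites hold a short purine core. The windows, from RefSeq on GRCm38.p6, run 5′ to 3′ on the gene's strand from 250 bases before to 50 bases after the annotated start. In capitals are matches, on either strand, to an X box core CTNGCAAC and a Y box CTGATTGG in the H2 genes, and to the PU.1 core GAGGAA, or its reverse complement, in the C1q genes. H2-Aa is at chr17:34287774-34288073 on the minus strand, H2-Eb1 at chr17:34305617-34305916 on the plus strand, C1qb at chr4:136886151-136886450 on the minus strand and C1qc at chr4:136892865-136893164 on the minus strand.
H2-Aa: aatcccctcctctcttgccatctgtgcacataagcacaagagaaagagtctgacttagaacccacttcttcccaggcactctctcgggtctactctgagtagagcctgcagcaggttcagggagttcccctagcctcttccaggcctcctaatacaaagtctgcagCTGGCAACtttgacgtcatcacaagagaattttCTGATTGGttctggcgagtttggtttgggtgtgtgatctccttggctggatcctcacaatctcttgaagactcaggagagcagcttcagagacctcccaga
H2-Eb1: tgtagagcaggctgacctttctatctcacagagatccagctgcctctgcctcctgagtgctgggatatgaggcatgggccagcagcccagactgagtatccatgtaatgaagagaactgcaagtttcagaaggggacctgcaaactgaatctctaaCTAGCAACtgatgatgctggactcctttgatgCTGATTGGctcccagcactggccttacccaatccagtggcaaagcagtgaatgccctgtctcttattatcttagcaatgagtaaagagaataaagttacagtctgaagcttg
C1qb: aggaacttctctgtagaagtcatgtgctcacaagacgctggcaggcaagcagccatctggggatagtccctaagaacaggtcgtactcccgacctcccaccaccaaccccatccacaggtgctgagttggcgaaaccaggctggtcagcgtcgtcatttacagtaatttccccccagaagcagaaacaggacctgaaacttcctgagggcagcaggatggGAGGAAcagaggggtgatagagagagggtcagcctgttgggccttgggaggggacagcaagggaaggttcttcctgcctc
C1qc: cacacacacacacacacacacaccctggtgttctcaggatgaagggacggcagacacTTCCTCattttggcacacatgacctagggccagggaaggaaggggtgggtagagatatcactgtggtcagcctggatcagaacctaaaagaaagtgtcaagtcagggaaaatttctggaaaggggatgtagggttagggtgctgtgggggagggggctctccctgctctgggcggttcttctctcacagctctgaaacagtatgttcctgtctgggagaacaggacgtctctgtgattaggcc

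In H2-Aa the X box match began 84 bases before the start and the Y box match 51 bases before it, with 25 bases between them. In H2-Eb1 they began 94 and 62 bases before the start, with 24 bases between. An X box core match was present in 3.42% of 32851 promoter windows, a Y box match in 4.1%, and both in 0.18%. The PU.1 core of C1qb began 30 bases before the start and the reverse-strand match of C1qc 193 bases before it. That short core was far more common, in 28.3% of all windows. It was found in 14 of the 25 members that the promoter table holds, counting a member if any of its windows matched. The first share is per window and the second per gene, so they are not on a like footing. No match overlapped another, and a match describes the letters only.

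The targeted gene Foxo1 had intensities of 126 and 343 on the dKO 2-month arrays, 904 and 2291 on the dKO day 25 arrays, and 10319 and 7666 on the wild-type arrays. Foxo3 was 2484 and 1872 on the dKO 2-month arrays, 2539 and 3279 on the dKO day 25 arrays, and 1632 and 1342 on the wild-type arrays, so its signal was not lower in dKO cells, and whether its probes lie in the deleted part is not known here. The granulosa cell product Inha was between 26038 and 27499 on all arrays. That is near the top of the scale, since the highest intensity on an array was 29154 to 31622. Whether the samples held equal shares of granulosa cells cannot be read from it. dKO 2-month replicate 1 stood apart: its Pearson correlation with the other arrays over all probe sets was 0.964 to 0.978, against 0.982 to 0.992 among the other 5. The results below are therefore also given for each dKO 2-month array on its own. In such bulk samples, fewer cells of a type and less RNA per cell cannot be told apart.

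The members shared their highest array and mostly their lowest. dKO 2-month replicate 1 was the highest of the 6 arrays for all 34 members, against 28.9% of all genes, and wild-type replicate 1 was the lowest for 28 members, against 20.1% of all genes. The summed intensity of the members was 32340 and 10963 on the dKO 2-month arrays, 13918 and 8855 on the dKO day 25 arrays, and 3751 and 7082 on the wild-type arrays. The order of the 6 arrays given by these sums held for 13 members, against 0.929% of all genes, and was described after the values were seen. The replicates of a group thus differed, and the order of the group means partly rests on single arrays. An exact two-sided permutation test on the median level of the members gave p = 0.333 for dKO at day 25 against wild type, 0.667 for dKO at 2 months against dKO at day 25 and 0.333 for dKO 2 months against wild type, where 0.333 is the smallest p that 2 against 2 arrays allow.

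**Figure D1:**
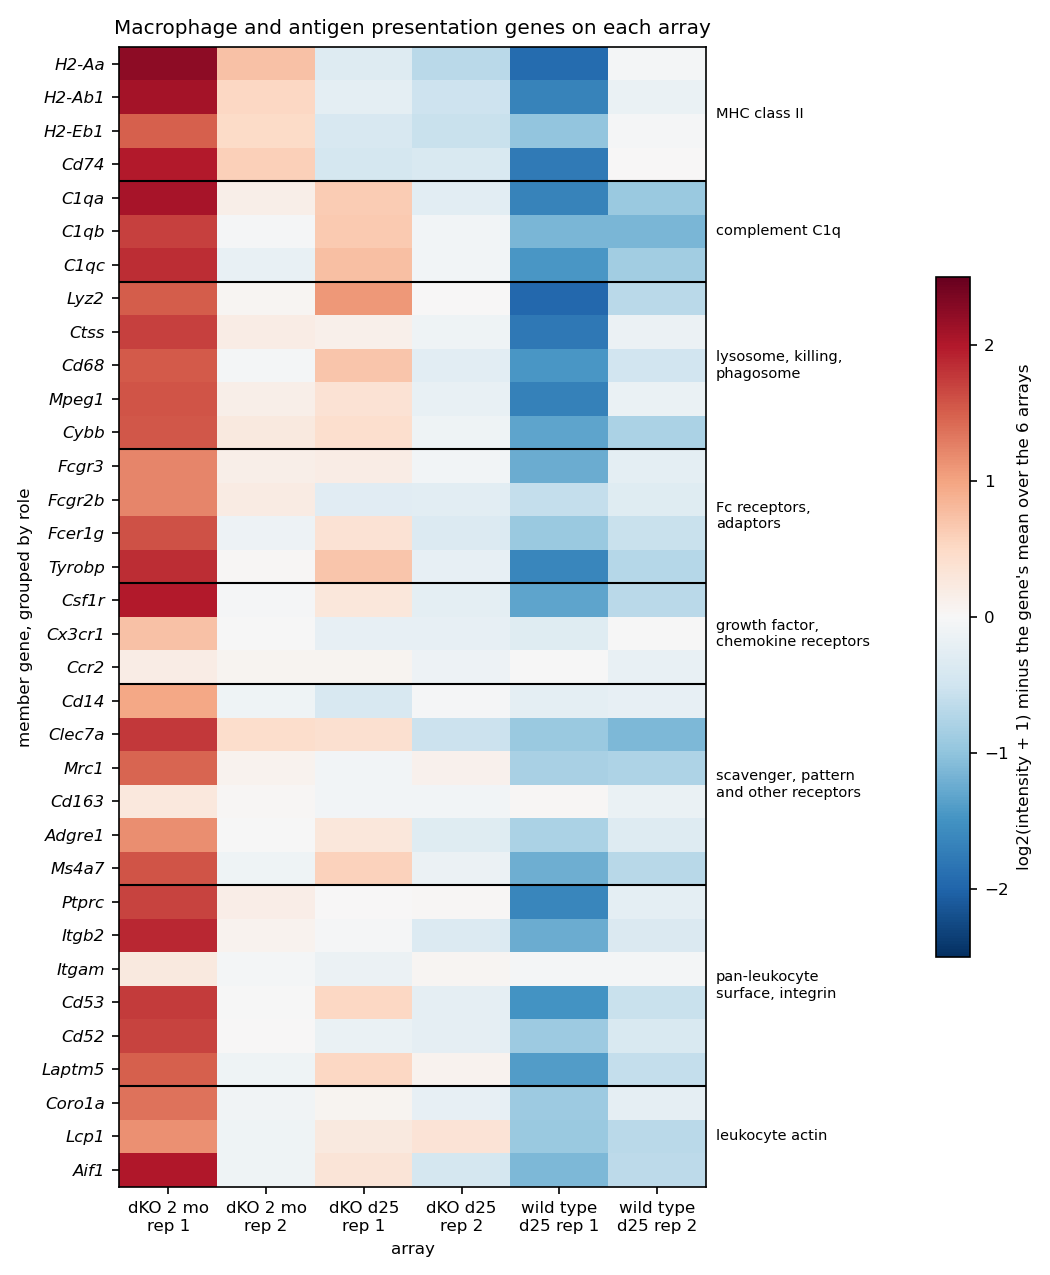
Each row is 1 of the 34 genes, grouped by role, and each column 1 of the 6 arrays; colour gives log2(intensity + 1) minus the mean of that gene over the 6 arrays. The column of dKO 2-month replicate 1 is the highest in every row, and the wild-type replicate 1 column is the lowest in 28 rows.

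At day 25, the mean was higher in dKO than in wild type for 32 of 34 members, against 55.4% of all genes. The median difference over the members was 0.82 on the log2 scale, or 1.77-fold, where the median of all genes was 0.03. Both dKO arrays were above both wild-type arrays for 24 members, against 26.4% of all genes, and the difference exceeded 2-fold for 13 members, against 2.9%. None passed limma at an adjusted p of 0.05, the smallest being 0.613, and 0 were at an unadjusted p under 0.05, against 4.89% of all genes called higher and 3.44% called lower. The 10 members whose arrays overlapped were the 4 MHC class II genes, Mpeg1, Cx3cr1, Ccr2, Cd14, Cd163 and Itgam. Without wild-type replicate 1 the median difference was 0.32, and without wild-type replicate 2 it was 1.29.

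Between the dKO ages, the mean was higher at 2 months than at day 25 for all 34 members, against 53% of all genes, with a median difference of 0.73 on the log2 scale, or 1.65-fold, against 0.02 for all genes. Both 2-month arrays were above both day 25 arrays for 12 members, against 19.7% of all genes, and 8 members differed by over 2-fold, against 1.18%. In limma, 0 members passed at an adjusted p of 0.05, the smallest being 0.712, and H2-Eb1 and Fcgr2b, 2 members, were higher at an unadjusted p under 0.05, against 3.73% of all genes, and 0 were lower, against 2.91%. With dKO 2-month replicate 1 left out, 19 members had a higher mean, the median difference was 0.068 and 0 members were at an unadjusted p under 0.05, against 3.14% of all genes called higher. With dKO 2-month replicate 2 left out, 34 had a higher mean, the median difference was 1.49 and 19 were at that p in limma, against 12.8% of all genes. Without dKO day 25 replicate 1, 0 were at that p, against 1.75% of all genes, without dKO day 25 replicate 2 also 0, against 2.8%, and without either wild-type array 3 were, against 2.61% of all genes.

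Against wild type, the mean in dKO at 2 months was higher for all 34 members, against 55.4% of all genes, and the median difference was 1.75 on the log2 scale, or 3.35-fold, against 0.04 for all genes. Both dKO 2-month arrays were above both wild-type arrays for 31 members, against 26.6% of all genes, the exceptions being Cx3cr1, Cd163 and Itgam. The difference exceeded 2-fold for 29 members, against 3.63% of all genes. In limma, 22 members were higher at an unadjusted p under 0.05, against 9.54% of all genes, 0 were lower, against 5.38%, and 0 passed at an adjusted p of 0.05, the smallest being 0.285. That count depended on single arrays: it was 0 without wild-type replicate 1, where 4.27% of all genes were called higher, and 10 without wild-type replicate 2, against 5.92%. It was 6 without dKO 2-month replicate 1, against 7.74%, and 31 without dKO 2-month replicate 2, against 15.6%. It was 2 without either of the dKO day 25 arrays, against 7.29%, although those arrays enter only through the shared estimate of the spread. The median difference was 0.91 without dKO 2-month replicate 1 and 1.28 without wild-type replicate 1. This comparison and each of the others share arrays.

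The 4 MHC class II genes did not separate dKO from wild type at day 25, and were highest on both 2-month arrays. H2-Aa, the alpha chain of the I-A molecule, had intensities of 2140 and 760 on the dKO 2-month arrays, 367 and 284 on the dKO day 25 arrays, and 120 and 442 on the wild-type arrays. H2-Ab1, its beta chain, was 1515 and 513 on the dKO 2-month arrays, 302 and 249 on the dKO day 25 arrays, and 112 and 320 on the wild-type arrays. In both genes wild-type replicate 2 was above both dKO day 25 arrays and wild-type replicate 1 was below all others. H2-Eb1, the beta chain of I-E, was 595 and 291 on the dKO 2-month arrays, 159 and 141 on the dKO day 25 arrays, and 105 and 205 on the wild-type arrays. Cd74, the invariant chain, was 1226 and 469 on the dKO 2-month arrays, 229 and 238 on the dKO day 25 arrays, and 91 and 314 on the wild-type arrays. For all 4 genes both dKO 2-month arrays were above the other 4, and both dKO day 25 arrays lay between the wild-type arrays. Wild-type replicate 2 was above both dKO day 25 arrays for 5 members, these 4 and Cx3cr1, against 33.1% of all genes.

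The dKO 2-month mean of H2-Aa was above the dKO day 25 mean by 1.98 ± 0.78 (SE) on the log2 scale (limma, unadjusted p = 0.0545, adjusted p = 0.712). The MHC class II median was 1.69 in that comparison and 2.19 between dKO at 2 months and wild type, and 0.47 between dKO at day 25 and wild type. For H2-Aa the day 25 difference was 0.48 ± 0.78 (limma, unadjusted p = 0.565, adjusted p = 0.896), and it was between -0.45 and 1.42 when single arrays were left out. H2-Eb1 differed by 0.03 ± 0.46 at day 25 (limma, adjusted p = 1) and by 1.47 ± 0.46 between the dKO ages (limma, unadjusted p = 0.0261, adjusted p = 0.712). Wild-type replicate 1 was 0.27-fold wild-type replicate 2 for H2-Aa and 0.51-fold for H2-Eb1, a gap within 1 group as large as many differences between groups.

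The 3 C1q genes were above wild type on both dKO day 25 arrays. dKO 2-month replicate 1 was above the dKO day 25 arrays for each, and replicate 2 lay between them for C1qa and C1qb and below them for C1qc. The arrangement of C1qa and C1qb was shared by 15 members in all, against 2.8% of all genes, among them Lyz2, Tyrobp and Csf1r. C1qa, the A chain, was 1952 and 513 on the dKO 2-month arrays, 723 and 387 on the dKO day 25 arrays, and 146 and 245 on the wild-type arrays. C1qb, the B chain, was 1557 and 463 on the dKO 2-month arrays, 748 and 451 on the dKO day 25 arrays, and 214 and 213 on the wild-type arrays. The wild-type arrays of C1qb were thus level with each other where most members had a gap. C1qc, the C chain, was 798 and 195 on the dKO 2-month arrays, 378 and 212 on the dKO day 25 arrays, and 80 and 121 on the wild-type arrays.

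For C1qb the dKO day 25 mean was above wild type by 1.44 ± 0.61 on the log2 scale (limma, unadjusted p = 0.068, adjusted p = 0.636), and the dKO 2-month mean was above dKO at day 25 by 0.55 (limma, adjusted p = 0.808). The median over the C1q genes was 1.48 for dKO at day 25 against wild type, 0.55 for dKO at 2 months against dKO at day 25 and 1.99 for dKO 2 months against wild type. dKO 2-month replicate 1 was 2.68-fold the dKO day 25 mean for C1qb and replicate 2 was 0.80-fold. The day 25 groups did not overlap for any of the 3 C1q genes and overlapped for all 4 MHC class II genes, whereas the dKO ages did the reverse. Of all genes, 26.4% were higher without overlap in dKO than in wild type at day 25. Between the dKO ages, 19.7% were higher without overlap at 2 months. The difference between the C1q and MHC class II patterns was not tested.

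**Figure D2:**
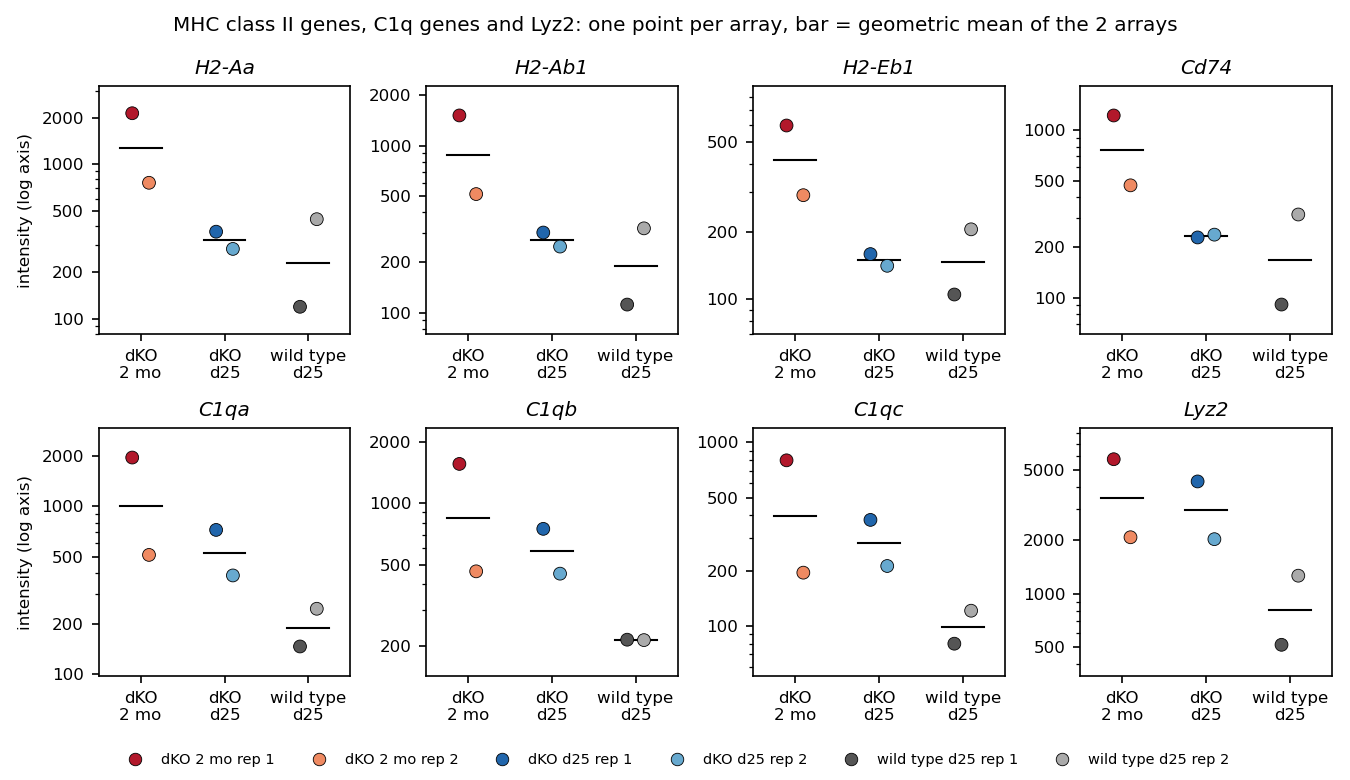
Intensity on a log axis in the dKO 2-month, dKO day 25 and wild-type groups, 1 point per array, with a bar at the geometric mean of the 2 arrays. In the upper row both dKO 2-month points of each MHC class II gene lie above the dKO day 25 points and 1 wild-type point lies between them; in the lower row both dKO day 25 points of each C1q gene and of Lyz2 lie above the wild-type points.

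Of the lysosomal and phagosome genes, Lyz2, Cd68 and Cybb had the arrangement of C1qa. Lyz2, the lysozyme of myeloid cells and the brightest member, was 5722 and 2077 on the dKO 2-month arrays, 4288 and 2026 on the dKO day 25 arrays, and 514 and 1261 on the wild-type arrays. Its dKO day 25 mean was above wild type by 1.87 ± 0.72 on the log2 scale (limma, unadjusted p = 0.0505, adjusted p = 0.613), the smallest adjusted p of a member in that comparison, whereas the 2 dKO ages differed by 0.23 (limma, adjusted p = 0.932). Ctss, the cathepsin that trims the invariant chain, was 1904 and 662 on the dKO 2-month arrays, 636 and 537 on the dKO day 25 arrays, and 168 and 523 on the wild-type arrays. Wild-type replicate 2 was close to dKO day 25 replicate 2 in this gene.

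Cybb, the catalytic subunit of the phagocyte NADPH oxidase, was 282 and 113 on the dKO 2-month arrays, 128 and 89 on the dKO day 25 arrays, and 38 and 55 on the wild-type arrays. On the probe set used, its arrays did not overlap between dKO and wild type. There the dKO 2-month mean was above wild type by 1.94 on the log2 scale (limma, unadjusted p = 0.0116, adjusted p = 0.287). On another probe set wild-type replicate 2, at 58, was above both dKO day 25 arrays, at 50 and 51. It equalled dKO 2-month replicate 2, and the dKO 2-month mean was above wild type by 0.91. A dimmer probe set, at 24 to 33 on every array, gave 0.25. Mpeg1, a pore-forming protein of phagocytes, was 1236 and 462 on the dKO 2-month arrays, 535 and 365 on the dKO day 25 arrays, and 128 and 371 on the wild-type arrays, so wild-type replicate 2 reached the lower dKO day 25 array. Cd68, a lysosomal membrane glycoprotein, was 786 and 263 on the dKO 2-month arrays, 441 and 227 on the dKO day 25 arrays, and 99 and 195 on the wild-type arrays.

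Among the Fc receptors and adaptors, Tyrobp was the brightest. This adaptor, which passes signals from many activating receptors, was 1778 and 508 on the dKO 2-month arrays, 801 and 428 on the dKO day 25 arrays, and 159 and 304 on the wild-type arrays. The dKO 2-month mean of Tyrobp was above wild type by 2.11 on the log2 scale (limma, unadjusted p = 0.0341, adjusted p = 0.354). Fcer1g, the shared signalling chain, was 803 and 244 on the dKO 2-month arrays, 340 and 209 on the dKO day 25 arrays, and 139 and 181 on the wild-type arrays. Fcgr3, an activating IgG receptor, was 407 and 195 on the dKO 2-month arrays, 200 and 167 on the dKO day 25 arrays, and 74 and 147 on the wild-type arrays. All 3 genes put every dKO array above every wild-type array.

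Fcgr2b, the inhibitory IgG receptor, was 979 and 482 on the dKO 2-month arrays, 343 and 349 on the dKO day 25 arrays, and 274 and 339 on the wild-type arrays. It was 1 of the 2 members at an unadjusted p under 0.05 between the dKO ages, with a difference of 0.99 on the log2 scale (limma, unadjusted p = 0.0397, adjusted p = 0.712). Its probe sets disagreed in size: dKO 2-month replicate 1 was 2.82-fold the dKO day 25 mean on the probe set used, and 12.2-, 7.05- and 6.21-fold on 3 others. dKO 2-month replicate 2 was 1.39-fold on the probe set used and 2.76-, 1.97- and 1.79-fold on those 3, so these 4 probe sets shared their direction. A further probe set was dim, at 8 to 10 on every array, and gave 1.05-fold for replicate 1 and 0.95-fold for replicate 2.

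Of the growth factor and chemokine receptors, Csf1r carried nearly all of the signal. Csf1r was 2966 and 737 on the dKO 2-month arrays, 914 and 628 on the dKO day 25 arrays, and 299 and 469 on the wild-type arrays. Its dKO 2-month mean was above wild type by 1.98 on the log2 scale (limma, unadjusted p = 0.0392, adjusted p = 0.362), and above dKO at day 25 by 0.96 (limma, adjusted p = 0.736), with dKO 2-month replicate 2 at 0.97-fold the dKO day 25 mean. Cx3cr1, the fractalkine receptor of resident macrophages and monocytes, was 56 and 33 on the dKO 2-month arrays, 29 on both dKO day 25 arrays, and 27 and 33 on the wild-type arrays. Ccr2, which draws monocytes towards Ccl2, was 62 and 57 on the dKO 2-month arrays, 57 and 50 on the dKO day 25 arrays, and 54 and 48 on the wild-type arrays. Both chemokine receptors stayed at or below 62 on every array.

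Scavenger and pattern receptors split by brightness too. Clec7a, the receptor for fungal beta-glucan, was 610 and 243 on the dKO 2-month arrays, 236 and 123 on the dKO day 25 arrays, and 94 and 82 on the wild-type arrays. Every array of a dKO group was above every wild-type array, and the dKO 2-month mean was above wild type by 2.12 on the log2 scale (limma, unadjusted p = 0.0112, adjusted p = 0.285), the smallest p of any member. Mrc1, the mannose receptor, was 333 and 129 on the dKO 2-month arrays, 115 and 131 on the dKO day 25 arrays, and 68 and 70 on the wild-type arrays. Its wild-type arrays were level with each other, and the dKO 2-month mean was above them by 1.57 (limma, unadjusted p = 0.0184, adjusted p = 0.318). Ms4a7, a membrane protein of macrophages, was 797 and 247 on the dKO 2-month arrays, 399 and 240 on the dKO day 25 arrays, and 114 and 165 on the wild-type arrays.

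Adgre1, a widely used surface marker of mouse macrophages, was 240 and 106 on the dKO 2-month arrays, 130 and 87 on the dKO day 25 arrays, and 61 and 85 on the wild-type arrays. Cd14, the co-receptor for lipopolysaccharide, was 159 on dKO 2-month replicate 1 and between 61 and 79 on the other 5 arrays. Cd163, the scavenger receptor for haemoglobin bound to haptoglobin, stayed between 13 and 18 on all 6 arrays, and Itgam, an integrin chain of myeloid cells, between 12 and 16, where the lowest intensity on an array was 6 or 7. These dim probe sets give no order of groups.

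The pan-leukocyte genes differed in where dKO 2-month replicate 2 lay: between the dKO day 25 arrays for Cd53, above both for Ptprc, Itgb2 and Cd52, and below both for Laptm5. Laptm5, a lysosomal membrane protein of blood-derived cells, was 785 and 256 on the dKO 2-month arrays, 397 and 294 on the dKO day 25 arrays, and 104 and 184 on the wild-type arrays. Without probe sets named as cross-hybridizing, Laptm5 was read on another probe set, where the dKO 2-month mean was -0.22 on the log2 scale relative to dKO at day 25 and -0.086 relative to wild type. Ptprc, the tyrosine phosphatase carried by nearly all leukocytes, was 468 and 163 on the dKO 2-month arrays, 146 and 147 on the dKO day 25 arrays, and 46 and 122 on the wild-type arrays. Cd53, a leukocyte tetraspanin, was 441 and 130 on the dKO 2-month arrays, 187 and 112 on the dKO day 25 arrays, and 46 and 89 on the wild-type arrays. On the probe sets used, every dKO array of these 3 genes was above every wild-type array. Itgb2, the shared beta chain of leukocyte integrins, was 394 and 112 on the dKO 2-month arrays, 103 and 83 on the dKO day 25 arrays, and 44 and 82 on the wild-type arrays. Cd52, a small anchored glycoprotein, was 452 and 140 on the dKO 2-month arrays, 125 and 119 on the dKO day 25 arrays, and 74 and 107 on the wild-type arrays.

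The leukocyte actin proteins were among the dimmer members. Lcp1, an actin bundler, was 427 and 177 on the dKO 2-month arrays, 226 and 243 on the dKO day 25 arrays, and 100 and 119 on the wild-type arrays, and dKO at day 25 was above wild type by 1.10 ± 0.43 on the log2 scale (limma, unadjusted p = 0.0511, adjusted p = 0.614). Its other probe set was 130 and 143 on the dKO 2-month arrays, 162 and 264 on the dKO day 25 arrays, and 113 and 91 on the wild-type arrays, so the probe sets disagreed on the dKO ages. Aif1, a calcium-binding protein of macrophages and microglia, was 278 and 63 on the dKO 2-month arrays, 85 and 50 on the dKO day 25 arrays, and 31 and 43 on the wild-type arrays. Coro1a, an actin regulator, was 158 and 57 on the dKO 2-month arrays, 64 and 53 on the dKO day 25 arrays, and 32 and 52 on the wild-type arrays. For these 3 genes dKO 2-month replicate 2 was within or below the range of the dKO day 25 arrays.

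Taken one by one, the 2 dKO 2-month arrays gave different pictures. dKO 2-month replicate 1 was above the dKO day 25 mean for all 34 members, by a median of 1.49 on the log2 scale or 2.80-fold, and over 2-fold for 28 members, against 3.65% of all genes. dKO 2-month replicate 2 was above that mean for 19 members and below it for 15, by a median of 0.068 or 1.05-fold, and over 2-fold for 2 members, H2-Aa and Cd74, against 0.66% of all genes. It was above both dKO day 25 arrays for 12 members, against 35% of all genes, a share close to the background, and those 12 included all 4 MHC class II genes. It was below both for C1qc, Laptm5 and Lcp1, against 28.5% of all genes, and between them for 19 members, against 36.6%. Relative to wild type, replicate 2 was above both arrays for 31 members, against 42.9% of all genes, with a median of 0.91 or 1.87-fold, where replicate 1 had 2.51 or 5.71-fold.

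Over the members as a whole, replicates within the other groups differed less. This did not hold for the 4 MHC class II genes in wild type. There the median of replicate 1 minus replicate 2 was -1.64 on the log2 scale, against 1.44 on the dKO 2-month arrays. dKO day 25 replicate 1 was above replicate 2 for 25 members, against 40% of all genes, by a median of 0.34 on the log2 scale, and by over 2-fold for Lyz2 alone, against 0.77%. Wild-type replicate 1 was below replicate 2 for 29 members, against 50.5% of all genes, by a median of -0.62 (replicate 1 minus replicate 2), and over 2-fold lower for 7 members, against 0.835% of all genes, namely H2-Aa, H2-Ab1, Cd74, Lyz2, Ctss, Mpeg1 and Ptprc. dKO 2-month replicate 1 exceeded replicate 2 by a median of 1.48 and by over 2-fold for 30 members, against 2.91% of all genes.

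**Figure D3:**
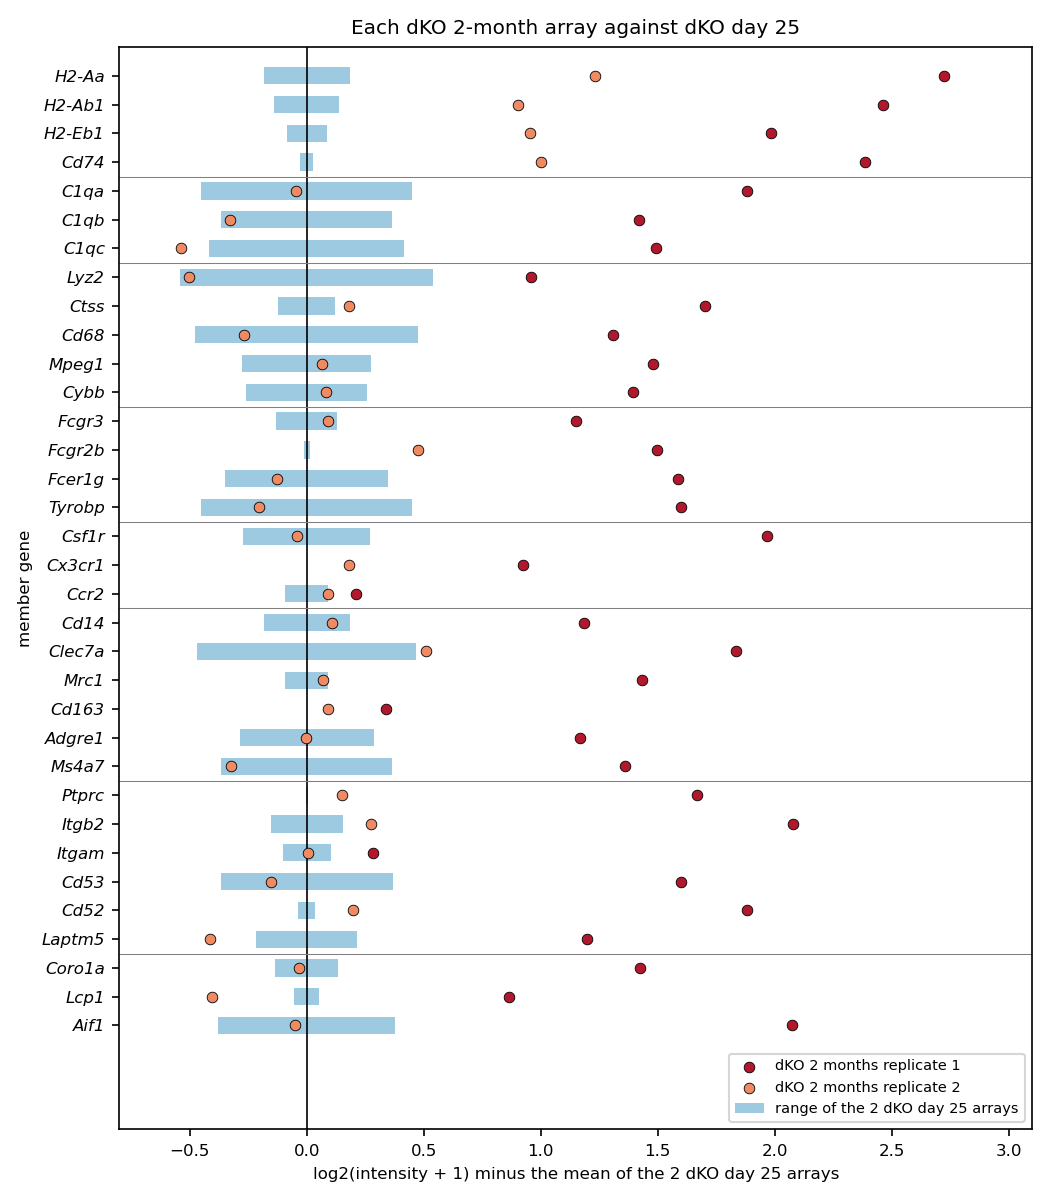
For each member, log2(intensity + 1) on the 2 dKO 2-month arrays minus the mean of the 2 dKO day 25 arrays, whose own range is the blue bar. Replicate 1 lies right of 0 for all 34 members. Replicate 2 lies right of the bar for 12 members, among them the 4 MHC class II genes, against 35% of all genes. It lies left of 0 for 15 members.

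Genes that work with the members were examined from lists. MHC class II partners and regulators were a mixed list of 16 genes, of which 3 were dim on every array. It held the peptide-loading H2-DM chains and endosomal proteases, and also regulators such as Rfx5, Rfxap and Nfyc. The median log2 difference was 0.11 for dKO at day 25 against wild type and 0.00 for dKO at 2 months against dKO at day 25. It was 0.09 for dKO 2 months against wild type, and all 3 were close to the medians of all genes. Because the list is mixed, these medians do not show whether its genes specific to class II presentation moved. In limma 2, 0 and 2 of these genes were higher and 0, 1 and 2 lower at an unadjusted p under 0.05 in those comparisons, and 0 passed at an adjusted p. The background for this list and the next was 4.89%, 3.73% and 9.54% of all genes called higher, and 3.44%, 2.91% and 5.38% lower. Both dKO 2-month arrays were above both wild-type arrays for 6 genes of this list, against 26.6% of all genes. They were below both for 3, against 17.3%. H2-DMa was 134 and 92 on the dKO 2-month arrays, 94 and 75 on the dKO day 25 arrays, and 56 and 65 on the wild-type arrays. Ctsl, a protease of many cells, was 13567 and 12240 on the dKO 2-month arrays, 16953 and 15723 on the dKO day 25 arrays, and 23155 and 18947 on the wild-type arrays, the reverse order. MHC class I processing, 15 genes active in most cells, had medians of 0.35, 0.08 and 0.28 in the same 3 comparisons, with 0, 1 and 3 genes higher and 0, 1 and 0 lower at that unadjusted p, and 0 at an adjusted p. Wild-type replicate 1 was below replicate 2 for all 15, as for 29 members. B2m, the light chain of class I, was 11795 and 8020 on the dKO 2-month arrays, 10647 and 9607 on the dKO day 25 arrays, and 6027 and 9436 on the wild-type arrays.

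A further 41 macrophage genes had a smaller shift in the members' direction. The median difference was 0.30 for dKO at day 25 against wild type, 0.35 for dKO at 2 months against dKO at day 25 and 0.71 for dKO 2 months against wild type, and 34, 36 and 38 genes had a higher mean. Of all genes, 55.4%, 53% and 55.4% had a higher mean in those comparisons. At an unadjusted p under 0.05 in limma 3, 3 and 14 of the 41 were higher and 0 lower, and 0 passed at an adjusted p. The background for this list and those after it was 4.89%, 3.73% and 9.54% of all genes called higher, and 3.44%, 2.91% and 5.38% lower. Lyve1, a hyaluronan receptor of lymphatic vessels and some macrophages, was 652 and 190 on the dKO 2-month arrays, 119 and 150 on the dKO day 25 arrays, and 127 and 67 on the wild-type arrays. Tlr2, a receptor for bacterial lipoproteins, was 306 and 229 on the dKO 2-month arrays, 109 and 163 on the dKO day 25 arrays, and 61 and 111 on the wild-type arrays, so both 2-month arrays were above the others. Among 10 myeloid transcription factors the medians were 0.02, 0.22 and 0.29, with 1, 1 and 2 genes higher and 2, 0 and 1 lower at that unadjusted p in limma and 0 at an adjusted p. Irf8, which drives monocyte and dendritic cell development, was 143 and 104 on the dKO 2-month arrays, 94 and 113 on the dKO day 25 arrays, and 45 and 60 on the wild-type arrays. Runx1, of the same list, ran the other way, and its values are given under the other observations. The 17 macrophage ligands and chemokines had medians of 0.00, 0.18 and 0.30, with 1, 0 and 3 genes higher and 0, 0 and 1 lower at that unadjusted p in limma and 0 at an adjusted p.

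Markers of other cells also differed between arrays, often in another order than the members. The 15 oocyte markers summed to 7342 and 43032 on the dKO 2-month arrays, 54093 and 79581 on the dKO day 25 arrays, and 37369 and 22760 on the wild-type arrays, so they were lowest on dKO 2-month replicate 1, where the members were highest, and 15 of 15 had a lower mean at 2 months than at day 25 in dKO. The 12 endothelial markers summed to 3933 and 2126 on the dKO 2-month arrays, 1400 and 1980 on the dKO day 25 arrays, and 1114 and 1330 on the wild-type arrays, and 12 of 12 had a higher mean in each comparison. Of all genes, 53% had a higher mean at 2 months than at day 25 in dKO. Against wild type the share was 55.4% for dKO at either age. The 6 theca and interstitial markers summed to 46929 and 38205 on the dKO 2-month arrays, 16250 and 29897 on the dKO day 25 arrays, and 21112 and 24255 on the wild-type arrays, with 4 of 6 having a higher mean at 2 months than at day 25 in dKO. The 8 surface epithelium markers summed to 5095 and 3631 on the dKO 2-month arrays, 2922 and 3446 on the dKO day 25 arrays, and 2883 and 2751 on the wild-type arrays, with 8 of 8 having a higher mean at 2 months in dKO. The 12 stroma and smooth muscle markers summed to 51178 and 28226 on the dKO 2-month arrays, 30931 and 38159 on the dKO day 25 arrays, and 25595 and 17781 on the wild-type arrays. By sum, dKO 2-month replicate 1 was thus highest in the theca, surface epithelium and stroma lists as well. Gene by gene it was the highest array for 2 of 6, 6 of 8 and 6 of 12 of them, against 28.9% of all genes. The granulosa cell sum was also highest there, with 3 of 12 genes highest on that array. The 12 granulosa cell markers summed to 145115 and 128086 on the dKO 2-month arrays, 143483 and 132346 on the dKO day 25 arrays, and 123439 and 135806 on the wild-type arrays, and their median difference was 0.07 for dKO day 25 against wild type, -0.07 for the later dKO age against the earlier and 0.11 for dKO 2 months against wild type. Among other leukocytes the medians for dKO at 2 months against wild type were 0.18 for 9 dendritic cell genes, 0.31 for 14 T and NK cell genes, 0.25 for 9 B and plasma cell genes, 0.25 for 10 neutrophil genes and 0.10 for 8 mast cell and eosinophil genes, all under the 1.75 of the members. Mean intensity was under 50 for 3, 8, 6, 8 and 7 genes of these leukocyte lists in turn, against 3 of the 34 members. Folds of such dim genes are understated, so these medians are not on a like footing with that of the members. No marker was listed at 0, since the lowest intensity is 6. The part of these markers in the members' differences was not tested.

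**Figure D4:**
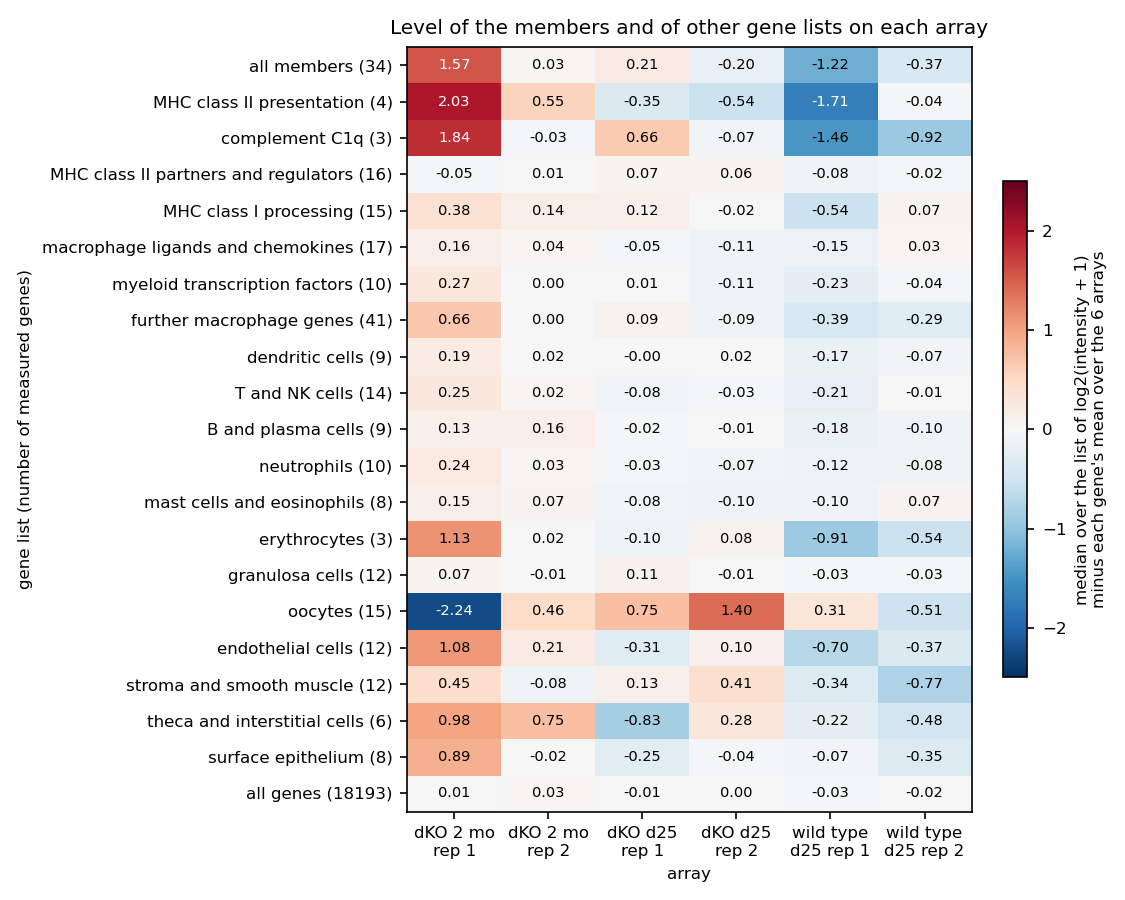
Median over each gene list of log2(intensity + 1) minus each gene's mean over the 6 arrays, for the 6 arrays, with the number of measured genes in brackets. The 34 members are at 1.57 on dKO 2-month replicate 1 and at -1.22 on wild-type replicate 1, where the oocyte list is at -2.24 and 0.31.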

How the data were processed

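Biotin-labelled cRNA from total RNA of granulosa cells was hybridised to Affymetrix arrays, 1 for each sample, per the labels. What the authors deposited is a linear intensity for each probe set, in whole numbers. The submitters' processing notes name affy and RMA; versions and genome build are not given in the sources used here. RMA gives all arrays nearly the same distribution, with a median of 73 to 74 on each, so a shift of most genes one way would not be seen. Scanner files were not used here, so background correction and slide could not be varied.

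Values were transformed as log2(intensity + 1), so folds of dim genes are understated. The table held 45101 probe sets, of which 64 controls were left out. limma 3.58.1 in R 4.3.3 fitted the other 45037 with a mean per group over all 6 arrays and 3 residual degrees of freedom, with two-sided tests and Benjamini-Hochberg adjustment over all of them. The annotation gave 1 symbol for 34945 probe sets, several for 932 and none for 9160. Precision is limited by the few arrays. The procedure was tested on simulated data. The 34 members and the 17 other lists, with 217 of 236 genes measured, were chosen with earlier results of these data known. In each role the 3 brightest members and those at an unadjusted p under 0.05 in any comparison were named with values, others being named freely, and of other lists the 4 brightest or those at that p. All 34 member IDs were found in RefSeq (GRCm38.p6), which gave names and promoters only. Alternatives were another pseudocount, a filter on dim probe sets, array weights, trend and robust moderation, centring, a repeated quantile normalization, the mean of a gene's probe sets, leaving out cross-hybridizing probe sets, 4-array fits, a replicate block and leaving out each array.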

Additional observations from a re-analysis of the deposited data

How the results depend on the processing

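The number of members at an adjusted p under 0.05 was 0 in all 3 comparisons in the 6-array limma fit, where 0, 2 and 22 were higher at an unadjusted p under 0.05 for dKO at day 25 against wild type, dKO at 2 months against dKO at day 25 and dKO at 2 months against wild type. For dKO at day 25 against wild type that count, with the share of all genes called higher in the same fit in brackets, was 8 with array weights (8.35%), 3 with centring (4.69%), 3 with dim probe sets left out (5.15%), 8 in the 4-array fit (9.05%), 4 with trend and robust moderation (4.82%), 2 with the mean of probe sets (4.36%), 1 after a repeated quantile normalization (4.74%), 2 with the replicate block (4.45%) and 16 with a crossed replicate block chosen after seeing the data (10.8%). Between the dKO ages it was 5 with trend and robust moderation (3.69%) and 1 with the replicate block (2.76%). For dKO at 2 months against wild type it was 2 in the 4-array fit (7.29%) and 10 with the replicate block (7.74%). The replicate numbers were not shown to pair the samples, with correlations of deviations of -0.159 for dKO at day 25 and wild type, 0.0569 for the 2 dKO groups and -0.208 for dKO at 2 months and wild type. The cause of these changes was not tested.

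The shares of all genes called higher with single arrays left out were 2.9% to 9.05% for dKO at day 25 against wild type, 1.75% to 12.8% between the dKO ages and, for dKO 2 months against wild type, 4.27% to 15.6%. Leaving out single arrays gave 0 to 8 members at that p and a median difference of 0.32 to 1.29 with 27 to 32 higher for dKO at day 25 against wild type, 0 to 19 and 0.068 to 1.49 with 19 to 34 between the dKO ages, and 0 to 31 and 0.91 to 2.51 with 33 to 34 for dKO 2 months against wild type. Between the dKO ages the difference took both signs for Aif1 (-0.049 to 2.07), C1qa (-0.044 to 1.88), C1qb (-0.33 to 1.42), C1qc (-0.54 to 1.49), Cd53 (-0.15 to 1.60), Coro1a (-0.031 to 1.42), Csf1r (-0.040 to 1.97), Fcer1g (-0.13 to 1.59), Laptm5 (-0.41 to 1.20), Lcp1 (-0.40 to 0.86), Lyz2 (-0.50 to 0.96), Ms4a7 (-0.32 to 1.36) and Tyrobp (-0.20 to 1.60). For dKO at day 25 against wild type it did so for Ccr2 (-0.026 to 0.16), Cd74 (-0.43 to 1.35), Cx3cr1 (-0.18 to 0.10), H2-Aa (-0.45 to 1.42), H2-Ab1 (-0.22 to 1.28) and H2-Eb1 (-0.45 to 0.51). Without cross-hybridizing probe sets Laptm5 was -0.22 between the dKO ages and, for dKO 2 months against wild type, -0.086. That setting measured 32 members, because H2-Aa and Aif1 have only probe sets named as cross-hybridizing. With the mean of probe sets Lcp1 was -0.18 between the dKO ages and Cx3cr1 0.00592 for dKO at day 25 against wild type. Detection above background is unknown here, so dim members are uncertain.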

Other observations

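A few genes outside the members, chosen after their values were seen, were high on dKO 2-month replicate 1. Jchain, the joining chain of antibodies made by plasma cells, was 397 and 97 on the dKO 2-month arrays, 26 and 36 on the dKO day 25 arrays, and 25 and 20 on the wild-type arrays. S100a9, a calcium-binding protein of neutrophils, was 120 and 26 on the dKO 2-month arrays, 26 and 24 on the dKO day 25 arrays, and 23 on both wild-type arrays. Slc4a1, the anion exchanger of red cells, was 172 and 27 on the dKO 2-month arrays, 41 and 54 on the dKO day 25 arrays, and 23 and 30 on the wild-type arrays.

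Others were high on both dKO 2-month arrays. Alas2, a haem synthesis enzyme of red cells, was 598 and 398 on the dKO 2-month arrays, 364 and 289 on the dKO day 25 arrays, and 129 and 127 on the wild-type arrays. Hdc, which makes histamine, was 289 and 285 on the dKO 2-month arrays, 155 and 190 on the dKO day 25 arrays, and 196 and 161 on the wild-type arrays. Runx1, a transcription factor of blood and granulosa cells from the list of myeloid transcription factors, ran the other way. It was at 55 and 59 on the dKO 2-month arrays, 84 and 91 on the dKO day 25 arrays, and 407 and 144 on the wild-type arrays.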
